A study of Mus musculus with 32 samples.

Results

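Sorted hindlimb cells in which the Etv2 reporter was active at E10.5 (HL EYFP+, 3 libraries) were compared with cells of the posterior hindlimb of wild-type embryos taken at E10.25 (E10.25 WT, 2 libraries). Together they made 5 of the 32 ATAC-seq samples of the series. The members were taken from the sample titles. The HL EYFP+ cells came from embryos of CD1 females and Etv2-EYFP males, in which EYFP is driven by a fragment of the Etv2 promoter. Cells positive for CD31, TIE2 or CD45 were removed by FACS, and CD31 and TIE2 served to exclude the endothelial lineage. Whether these markers also removed red blood cells is not stated. The labels give neither population a deletion of Etv2. For the sort, limb buds were pooled or processed separately, and the study states that each wild-type sample pooled hindlimb buds of many embryos. The labels attach the text of the EYFP sort to every sample of the series, and the sources used here do not say whether cells positive for CD31, TIE2 or CD45 were removed from E10.25 WT. Sort, stage, dissection and transgene therefore differed together between the populations and cannot be told apart. ATAC-seq marks DNA that is open to the Tn5 transposase, and each deposited list holds the summits of the called peaks.

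The hindlimb bud grows from the lateral plate mesoderm, and its posterior margin becomes the zone of polarizing activity, the source of SHH. LIM-homeodomain factors such as ISL1 and LHX2, other homeodomain factors such as the HOX and MEIS proteins, and the bHLH factor HAND2 act in the early limb mesenchyme, whereas GATA6 restrains Shh in the anterior part. GATA1 and its partners TAL1, LMO2 and NFE2 control genes of red blood cells, which in the early embryo circulate as nucleated cells.

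The lists held 32245, 41281 and 34360 summits in HL EYFP+ and 43566 and 34051 in E10.25 WT, and each was reduced to its 30000 highest-ranked summits. The files hold no read counts, so the depth is unknown, and a summit that was not listed does not show that the site was closed. Rank scores run from 1 for the highest-ranked summit of a list towards 0, and 0 means that no summit lay within 200 bp. Of 37704 intervals of 200 bp called in at least 2 libraries, 12309 were called in all 5. Libraries of the same population shared more intervals than libraries of different populations. The Jaccard index (shared intervals over all intervals called in either library) was 0.602 to 0.637 within HL EYFP+, 0.706 within E10.25 WT and 0.505 to 0.592 between them. The promoters of the markers Lhx2, Isl1 and Gata6 were listed in 3 of 3 HL EYFP+ and 2 of 2 E10.25 WT libraries, as were those of the limb mesenchyme genes Prrx1, Twist1, Msx1, Fgf10 and Tbx4. The promoter of Tbx5, a forelimb gene, was listed in none.

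Many of the intervals that differed had a summit of the other population close by. In all, 1850 intervals were called in all HL EYFP+ and no E10.25 WT libraries (4.91% of those tested) and 2810 the other way round (7.45%), but in 1027 of the 1850 and 1302 of the 2810 the other population had a summit within 1000 bp. By limma with Benjamini-Hochberg adjustment, 574 intervals (1.52%) were higher in HL EYFP+ and 1258 (3.34%) in E10.25 WT. Of the 16 intervals with the smallest p, 8 in each direction, 14 had such a neighbouring summit, as at the promoters of Osbpl9, Gtdc1, Ensa and Etaa1, and the other 2 lay in a stretch near Col19a1 whose sequence is like that of the mitochondrial genome. These 16 intervals are not used further. With limma, no interval passed in either direction when HL EYFP+ replicate 1 or 2 or either E10.25 WT library was left out, while 1795 to 3538 intervals in one direction and 985 to 4345 in the other had an unadjusted p under 0.05, so every limma call on intervals below rests on all 4 of these libraries. Therefore, population-specific regions were defined after the data were seen, as intervals called in all libraries of 1 population with no summit of the other within 1000 bp in its whole lists, leaving out repeats and sequences like the mitochondrial genome. This gave 806 regions of HL EYFP+ (2.14% of the intervals) and 1322 of E10.25 WT (3.51%), of which 114 and 423 also passed limma. The counts depended on single libraries. Without HL EYFP+ replicate 1, 2 or 3 or E10.25 WT replicate 1, 1294, 1471, 1606 and 1820 regions of HL EYFP+ would be found, and without HL EYFP+ replicate 2, 2235 regions of E10.25 WT. As these regions were chosen by their values, what follows about their ranks is a description.

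The regions below are shown as examples of the sequences behind the motif counts that follow. They are 6 HL EYFP+ regions that passed limma, lie over 1000 bp from a transcription start and have a listed gene as their nearest gene. The letters ATTA, the core that many homeodomain proteins bind, and GATA, the core of GATA factors, are in capitals on either strand. Overlapping cores form longer runs. Sequences are from GRCm38.p6 (mm10), plus strand, and each is named by the nearest gene. That of Sox5 lies in an intron of the gene, 254296 bp from a start, and the other 5 are intergenic, at 42977 bp (Gas1) to 590823 bp (Gata3).

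Meis2 (chr2:116125936-116126135): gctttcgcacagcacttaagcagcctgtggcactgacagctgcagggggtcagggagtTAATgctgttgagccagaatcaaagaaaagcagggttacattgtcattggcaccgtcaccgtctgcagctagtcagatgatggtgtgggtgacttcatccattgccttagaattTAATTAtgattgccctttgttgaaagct
Gata3 (chr2:9287677-9287876): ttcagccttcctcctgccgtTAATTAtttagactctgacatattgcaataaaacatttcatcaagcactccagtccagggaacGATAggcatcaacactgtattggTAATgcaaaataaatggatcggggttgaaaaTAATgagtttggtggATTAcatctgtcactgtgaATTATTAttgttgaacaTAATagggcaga
Lef1 (chr3:131040546-131040745): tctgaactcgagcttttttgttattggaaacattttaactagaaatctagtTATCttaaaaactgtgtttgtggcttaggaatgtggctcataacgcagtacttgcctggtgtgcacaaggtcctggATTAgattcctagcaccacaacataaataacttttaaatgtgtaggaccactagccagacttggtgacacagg
Sox5 (chr6:144463764-144463963): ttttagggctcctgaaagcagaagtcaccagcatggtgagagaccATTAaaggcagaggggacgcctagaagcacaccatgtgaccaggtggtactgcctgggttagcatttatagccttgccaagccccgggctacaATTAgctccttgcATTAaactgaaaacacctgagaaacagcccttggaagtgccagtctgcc
Gas1 (chr13:60133864-60134063): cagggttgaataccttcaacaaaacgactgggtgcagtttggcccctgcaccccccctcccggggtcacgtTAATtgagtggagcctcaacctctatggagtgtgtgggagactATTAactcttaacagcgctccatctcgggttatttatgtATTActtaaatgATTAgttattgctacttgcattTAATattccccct
Hand2 (chr8:57229593-57229792): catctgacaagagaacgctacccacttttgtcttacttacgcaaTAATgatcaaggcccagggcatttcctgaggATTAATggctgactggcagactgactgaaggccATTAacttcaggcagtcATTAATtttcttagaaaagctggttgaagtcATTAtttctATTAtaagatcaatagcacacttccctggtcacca

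For E10.25 WT, 5 such regions from those with the smallest p are shown, with red blood cell genes counted as listed, followed by the interval near Isl1 that passed limma. That of Rhag lies in an intron of the neighbouring Crisp2, and the others are intergenic, at 3136 bp (Nfe2) to 188315 bp (Isl1) from the start.

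Nfe2 (chr15:103258475-103258674): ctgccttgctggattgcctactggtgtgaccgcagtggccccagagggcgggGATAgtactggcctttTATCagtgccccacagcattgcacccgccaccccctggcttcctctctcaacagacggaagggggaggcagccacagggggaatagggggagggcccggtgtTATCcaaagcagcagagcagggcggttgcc
Hbb-y (chr7:103861019-103861218): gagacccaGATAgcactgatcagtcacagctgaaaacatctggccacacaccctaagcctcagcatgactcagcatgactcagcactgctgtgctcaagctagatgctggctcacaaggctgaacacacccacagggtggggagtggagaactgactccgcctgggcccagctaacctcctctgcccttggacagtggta
Lmo2 (chr2:103893859-103894058): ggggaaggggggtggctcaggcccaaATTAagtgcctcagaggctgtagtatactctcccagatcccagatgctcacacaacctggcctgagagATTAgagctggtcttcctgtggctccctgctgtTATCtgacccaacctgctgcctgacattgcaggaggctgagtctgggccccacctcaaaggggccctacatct
Rhag (chr17:40806734-40806933): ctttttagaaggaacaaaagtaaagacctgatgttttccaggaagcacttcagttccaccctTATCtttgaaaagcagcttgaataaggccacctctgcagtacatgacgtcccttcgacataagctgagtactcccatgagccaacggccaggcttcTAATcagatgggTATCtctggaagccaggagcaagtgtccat
Mef2c (chr13:83344721-83344920): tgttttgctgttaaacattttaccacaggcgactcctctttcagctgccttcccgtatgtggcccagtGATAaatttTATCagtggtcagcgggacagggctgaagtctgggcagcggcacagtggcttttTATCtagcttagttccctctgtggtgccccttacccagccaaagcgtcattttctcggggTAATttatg
Isl1 (chr13:116497904-116498103): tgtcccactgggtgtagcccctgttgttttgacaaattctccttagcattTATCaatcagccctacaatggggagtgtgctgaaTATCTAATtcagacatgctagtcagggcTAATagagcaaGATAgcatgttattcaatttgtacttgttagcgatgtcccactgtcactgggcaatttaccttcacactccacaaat

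All 6 printed HL EYFP+ regions held ATTA, with 8 copies each in the regions of Hand2 and Gata3 and 5 in that of Gas1, and 2 of them held GATA. All 6 printed E10.25 WT intervals held GATA, with 3 copies each near Nfe2, Mef2c and Isl1, and 4 of them also held ATTA, with 2 copies each near Lmo2 and Isl1 and 1 each near Rhag and Mef2c. Across the regions over 1000 bp from a start, ATTA was present in 91.6% of 796 HL EYFP+ regions and in 41.7% of 1174 E10.25 WT regions. All such distal intervals of the same GC content held it in 80.4% and 58.3%, and all 200-bp intervals in 47.8%. The core GATA was present in 45.4% of the HL EYFP+ regions and in 65.7% of the E10.25 WT regions, against 51.6% and 40.1% of distal intervals of the same GC content and 35.7% of all intervals. The longer words showed the same order. TAATTA was found in 24.5% of distal HL EYFP+ regions and 2.81% of distal E10.25 WT regions, and AGATAA in 6.53% and 29.2%. The ETS word AGGAAG, in contrast, was found in 22.2% and 26.8%, near the 23.7% and 25.6% of distal intervals of the same GC content. These shares follow from how the regions were chosen and were not tested.

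The motif difference was tested over all of the 30000 highest-ranked summits of each library, without a choice of regions. These summits include those that define the regions, so this test is not separate from the counts above. The share of the 30000 windows of 200 bp that held each word of 6 bases on either strand was standardised for GC content and compared by limma with Benjamini-Hochberg adjustment. In HL EYFP+, 134 words (6.44%) were higher, and in E10.25 WT 64 words (3.08%). Of the 48 words that hold ATTA, 40 were higher in HL EYFP+ and 0 in E10.25 WT. Of the 48 that hold GATA, 25 were higher in E10.25 WT and 0 in HL EYFP+. Words hold overlapping letters and are not independent, and the counts fell to 23 and 17 without E10.25 WT replicate 2 and to 28 and 22 among summits over 1000 bp from a start.

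GATA words stood first in E10.25 WT. AGATAA was found in 4.61%, 4.75% and 5.21% of the windows of HL EYFP+ and in 7.31% and 6.48% of those of E10.25 WT, so that every E10.25 WT library lay above every HL EYFP+ library. The log2 difference was -0.50 ± 0.055 (SE, n = 3 and 2; limma, Benjamini-Hochberg adjusted p = 0.000136). TGATAA differed by -0.35 ± 0.041 (limma, Benjamini-Hochberg adjusted p = 0.000239). The 5 words with the smallest p in this direction, AGATAG (-0.45), CTTATC (-0.67), AAGATA (-0.41), CAGATA (-0.38) and GAGATA (-0.44), all hold GATA on 1 strand. The largest of these differences, that of CTTATC, had an SE of 0.053 (limma, Benjamini-Hochberg adjusted p = 1.06e-05), and its shares were 2.95%, 3.33% and 3.36% in HL EYFP+ and 5.32% and 4.88% in E10.25 WT. Without the standardisation for GC content, AGATAA still passed, with a difference of -0.23, but TGATAA did not, with -0.04 (limma, Benjamini-Hochberg adjusted p = 0.667) and with shares that overlapped.

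Homeodomain words were higher in HL EYFP+. TAATTA, bound by LHX and many other homeodomain proteins, was found in 7.67%, 7.29% and 9.43% of the windows of HL EYFP+ and in 6.32% and 6.003% of those of E10.25 WT. Replicate 3 was the highest of the 3 sorted libraries, and the populations did not overlap. The log2 difference was 0.39 ± 0.078 (limma, Benjamini-Hochberg adjusted p = 0.00771). It did not pass without E10.25 WT replicate 2 (0.35; limma, Benjamini-Hochberg adjusted p = 0.097) or among summits over 1000 bp from a start (0.40; limma, Benjamini-Hochberg adjusted p = 0.068). CTAATG, a word of ISL1 and other LIM-homeodomain factors, was found in 8.22%, 7.94% and 9.06% of the windows of HL EYFP+ and in 6.90% and 6.57% of those of E10.25 WT, a log2 difference of 0.32 ± 0.048 (limma, Benjamini-Hochberg adjusted p = 0.00157). The 5 words with the smallest p were AATTGG (0.33), TAACGA (0.42), CAATTA (0.38), ATTAGC (0.35) and AATTGA (0.23), with the log2 difference in brackets, of which CAATTA and ATTAGC hold ATTA and the other 3 do not. Of the 20 with the smallest p, 13 hold it. Words with no G or C were also often higher in HL EYFP+, 16 of 36, and so were 48 of 192 with 1 G or C, and part of the words with ATTA are among these.

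Of the 30 words listed for factor families, 9 were higher in HL EYFP+ and 2 in E10.25 WT. Beside TAATTA and CTAATG, words of other homeodomain families were higher in HL EYFP+ on the log2 scale. They were those of PITX (GGATTA, 0.21), PBX (TGATTG, 0.18) and posterior HOX (TTTATG, 0.18, and TTTATT, 0.12). So were the E-box of TWIST and HAND (CATATG, 0.18) and the words of TEAD (GGAATG, 0.15) and NF-Y (CCAATC, 0.15). None of these 7 words passed among distal summits or without E10.25 WT replicate 2. The ETS words AGGAAG (-0.01 ± 0.032), CGGAAG (0.03 ± 0.037) and GGAAGT (0.08 ± 0.034) did not pass, nor did those of AP-1 (GAGTCA), SOX (CATTGT), FOX (GTAAAC), RUNX (TGTGGT), TCF/LEF (CTTTGA), GRHL (ACCGGT), p63 (CATGTC), GLI (GGGTGG), MEIS (TGACAG) and the myogenic E-box (CAGCTG).

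**Figure D1:**
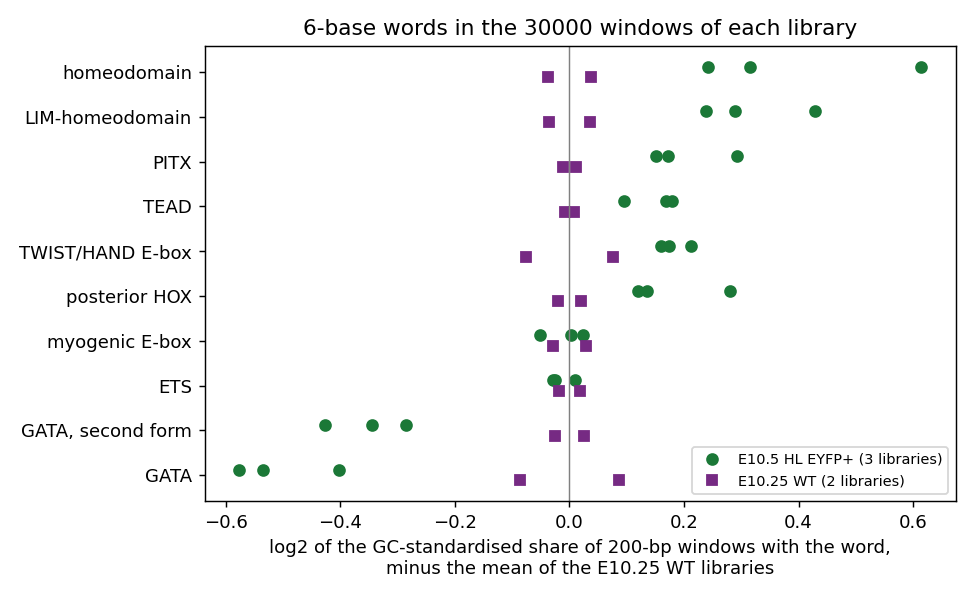
Shares of 200-bp windows that hold a word of 6 bases, standardised for GC content, on the log2 scale relative to the mean of the 2 E10.25 WT libraries, with 1 point per library (circles, 3 HL EYFP+; squares, 2 E10.25 WT). Both GATA words lie below 0 in all 3 HL EYFP+ libraries, the homeodomain words above 0, and the ETS word of the plot (log2 difference of -0.01) near 0.

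The populations also differed in where their summits lay. Within 500 bp of a transcription start lay 34.4%, 36.7% and 37.4% of the summits of HL EYFP+ and 40.0% and 40.3% of those of E10.25 WT, so that the populations did not overlap. The means were 36.1% ± 1.56 and 40.1% ± 0.233 (SD, n = 3 and 2; exact permutation test, two-sided, p = 0.2, the smallest that this test can give with 3 against 2). Among the 10000 highest-ranked summits the gap was wider, with 54.3%, 60.5% and 61.3% against 76.6% and 75.6%. Summits over 50 kb from any start were more frequent in HL EYFP+, at 36.5%, 33.1% and 29.0% against 26.1% in both E10.25 WT libraries. In the whole lists the promoter shares overlapped, with 29.2% to 34.2% in HL EYFP+ and 29.4% and 36.5% in E10.25 WT.

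**Figure D2:**
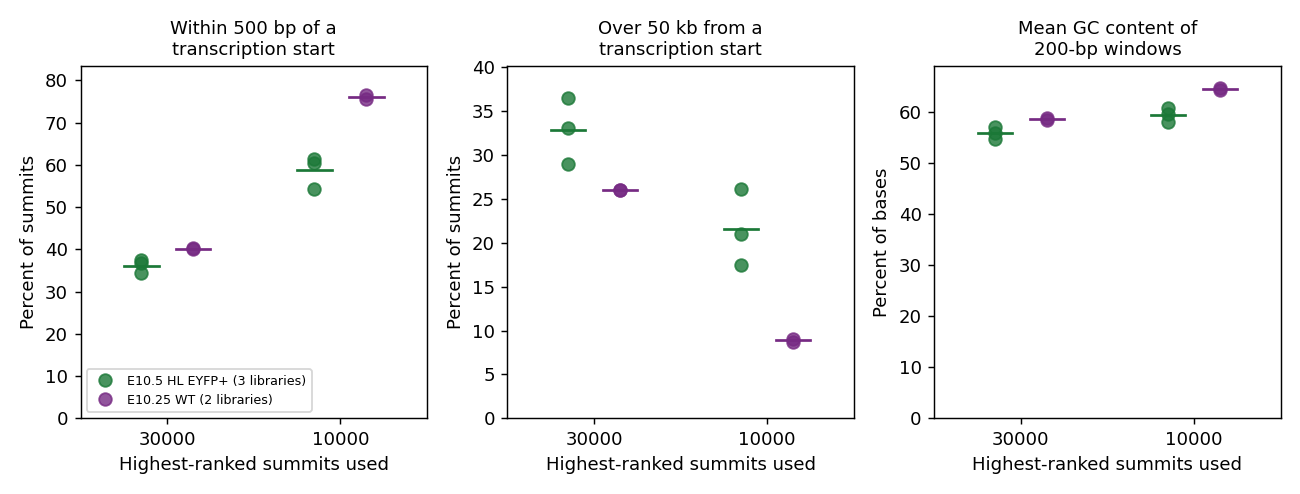
Composition of the 30000 and the 10000 highest-ranked summits of each library, with the percent of summits within 500 bp of a transcription start, the percent over 50 kb from one and the mean GC content of the 200-bp windows. Each point is a library and each line a group mean, and the 2 E10.25 WT libraries lie above the 3 HL EYFP+ libraries in promoter share and GC content and below them in distant summits.

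The regions differed in the same way. Of the HL EYFP+ regions, 0.868% lay within 500 bp of a start and 67.1% over 50 kb from one, with a median distance of 88620 bp and a median GC content of 45.5%. Of the E10.25 WT regions, 9.76% lay within 500 bp of a start and 28.1% over 50 kb from one, with a median distance of 20210 bp and a median GC content of 53.5%. Over all intervals, 36.4% lay within 500 bp and 30.6% over 50 kb away. Introns held 48.6% of the HL EYFP+ and 50.7% of the E10.25 WT regions.

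Promoters themselves seldom differed in the direction of HL EYFP+. Of 21840 protein-coding genes, 9692 had a summit within 500 bp of a start in all 5 libraries. Only 38 genes (0.174%) were listed in all HL EYFP+ and no E10.25 WT libraries, against 317 genes (1.45%) the other way round. With no summit of the other population within 1000 bp in the whole lists, 5 and 117 genes were left. The 5 were Hist2h2be, Il31ra, Klf12, Slc6a9 and Smad6, an inhibitor of BMP signalling. Among the 117 were the globin genes Hba-a1, Hba-a2 and Hbb-y, the red cell membrane gene Epb42, Trim10, and Lyl1, a bHLH factor of blood cells. They also held Epcam, a surface protein of epithelia, and Esam, an adhesion molecule of endothelium, as well as Otx2, Olig1 and Pou4f2, regulators of neural development that were named after their values were seen. In all, 10764, 11552 and 11783 promoters were listed in HL EYFP+ and 12467 and 12499 in E10.25 WT, and the part of these totals in the gap was not tested.

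Genes of red blood cells carried the clearest group of E10.25 WT regions. As ATAC-seq of a tissue averages over its cells, more cells of a type and more open chromatin per cell cannot be told apart. The list of 26 genes was chosen after the globin regions had been seen, and its counts are a description. Of the 65 intervals nearest to these genes, 24 (36.9%) were E10.25 WT regions and 0 were HL EYFP+ regions, against 3.51% and 2.14% of all intervals, and 12 were higher in E10.25 WT by limma and 1 in HL EYFP+. All 5 intervals nearest to Hbb-y, the embryonic beta-like globin gene, were E10.25 WT regions. The 3 that passed limma lie 6057, 7903 and 12733 bp from its start, on the side of the locus control region. That at 7903 bp, printed above, had rank scores of 0.630 and 0.637 in E10.25 WT and was not listed in any HL EYFP+ library (difference -0.63 ± 0.052, SE; limma, Benjamini-Hochberg adjusted p = 0.0201). The region 3136 bp from the start of Nfe2, which encodes a subunit of a factor that activates globin genes, had 0.675 and 0.679 (-0.68 ± 0.052; limma, Benjamini-Hochberg adjusted p = 0.0199). The region 63 bp from Trim10 had 0.695 and 0.664, and Alas2, the first enzyme of haem synthesis in red cells, had an intronic region with 0.631 and 0.151 that did not pass.

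The red cell promoters were listed in 5, 4 and 7 of 26 genes in HL EYFP+ and in 20 and 15 in E10.25 WT. The summed rank scores of the list's intervals were 10.4 to 16.5 and 22.0 to 24.5. In the other 27 libraries, 2 to 11 of these promoters were listed. The Hbb-y promoter was listed in both E10.25 WT libraries and in E9.5 HL, which had 11 red cell promoters, and in no other library. The promoters of Klf1, Epor and Rhag were listed in no E10.25 WT library, even in the whole lists, and that of Gata1 in 1 whole list only. How far red blood cells in the E10.25 WT samples account for the GATA words was not tested.

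The list of endothelial and blood genes, which was fixed with earlier results of these data known, shares Nfe2, Tal1, Lyl1 and Klf1 with the red cell list. Of its 138 intervals, 12 were higher in E10.25 WT and 2 in HL EYFP+ by limma, which is 8.70% and 1.45%, against 3.34% and 1.52% of all intervals. There were 11 E10.25 WT regions (7.97%) and 5 HL EYFP+ regions (3.62%), against 3.51% and 2.14% of all intervals. Those of E10.25 WT lay near Lmo2 and Tal1, members of the GATA complex of blood cells, and near Runx1 (2), the factor of blood stem cell formation. Others lay near Lyl1, Nfe2 and Fli1, near Flt1, a VEGF receptor, and near Esam and Mef2c (2). The Lmo2 region at 64036 bp had rank scores of 0.611 and 0.596 in E10.25 WT and 0 in the 3 HL EYFP+ libraries (-0.60 ± 0.052; limma, Benjamini-Hochberg adjusted p = 0.0201). Another Lmo2 interval, at 30045 bp, went the other way, with 0.899, 0.893 and 0.965 against 0.394 and 0.497 (0.47 ± 0.065; limma, Benjamini-Hochberg adjusted p = 0.0363). The HL EYFP+ regions lay near Cdh5, Emcn, Lmo2, Erg and Ets1. Of the defining markers, the promoters of Cdh5, Pecam1, Tek, Tie1, Robo4, Ptprc and Spi1 were in no list of either population. That of Kdr was listed in 3 of 3 HL EYFP+ and 2 of 2 E10.25 WT libraries. That of Emcn was listed in 1 E10.25 WT and no HL EYFP+ library. Of the 30 promoters, 8 to 11 were listed in HL EYFP+ and 14 and 17 in E10.25 WT. The summed rank scores overlapped, at 41.8 to 46.8 and 43.8 to 45.8.

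The lists of other cell types gave these counts. Of the 30 genes of limb ectoderm and apical ridge, 3, 3 and 5 promoters were listed in HL EYFP+ and 7 and 9 in E10.25 WT, with summed rank scores of 18.3 to 22.97 and 19.4 to 20.2. The promoters of Krt5, Krt14, Trp63, Wnt7a and Fgf8 were in no list of either population, whereas that of Epcam was listed in both E10.25 WT and no HL EYFP+ libraries. In the whole lists, those of Esrp1, Esrp2, Krt18, Sp6, Wnt3 and Wnt6 were likewise found in E10.25 WT but not in HL EYFP+. That of Grhl2 went the other way. Of 9 genes of neural crest and glia, 2 to 3 and 3 to 4 promoters were listed, and of 18 genes of muscle progenitors and somites 7 to 11 and 10 to 11. The promoters of Sox10 in the first and of Lbx1, Meox1, Myf6, Myod1 and Pax7 in the second list were in no list of either population. Those of Erbb3, Foxd3 and Tfap2b were in E10.25 WT but no HL EYFP+ lists. Of 12 genes of the coelomic lining and trunk mesoderm, 3 to 6 and 4 to 7 were listed.

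For lists of limb genes the counts of regions were as follows. For limb mesenchyme, 7 of 164 intervals were HL EYFP+ regions (4.27%) and 2 were E10.25 WT regions (1.22%). For FGF signalling it was 4 of 102 (3.92%) and 1 (0.98%), and for cartilage 5 of 85 (5.88%) and 1 (1.18%). Posterior and anterior patterning genes had 7 of 184 (3.8%) and 6 (3.26%). Of all intervals, 2.14% were HL EYFP+ regions and 3.51% E10.25 WT regions. The median difference in rank score was 0.129, 0.114, 0.112 and 0.119 in these lists, against -0.01 over all intervals. Lists of other tissues had medians of similar size, with 0.104 for muscle progenitors and somites, 0.135 for the coelomic lining and trunk and 0.109 for neural crest and glia. By limma with Benjamini-Hochberg adjustment the limb lists had few calls, with 3 higher in HL EYFP+ (1.83%) and 4 in E10.25 WT (2.44%) for mesenchyme. It was 3 and 3 for patterning (1.63% each), 2 and 2 for cartilage (2.35% each) and 0 and 0 for FGF signalling. The shares of all intervals were 1.52% and 3.34%.

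**Figure D3:**
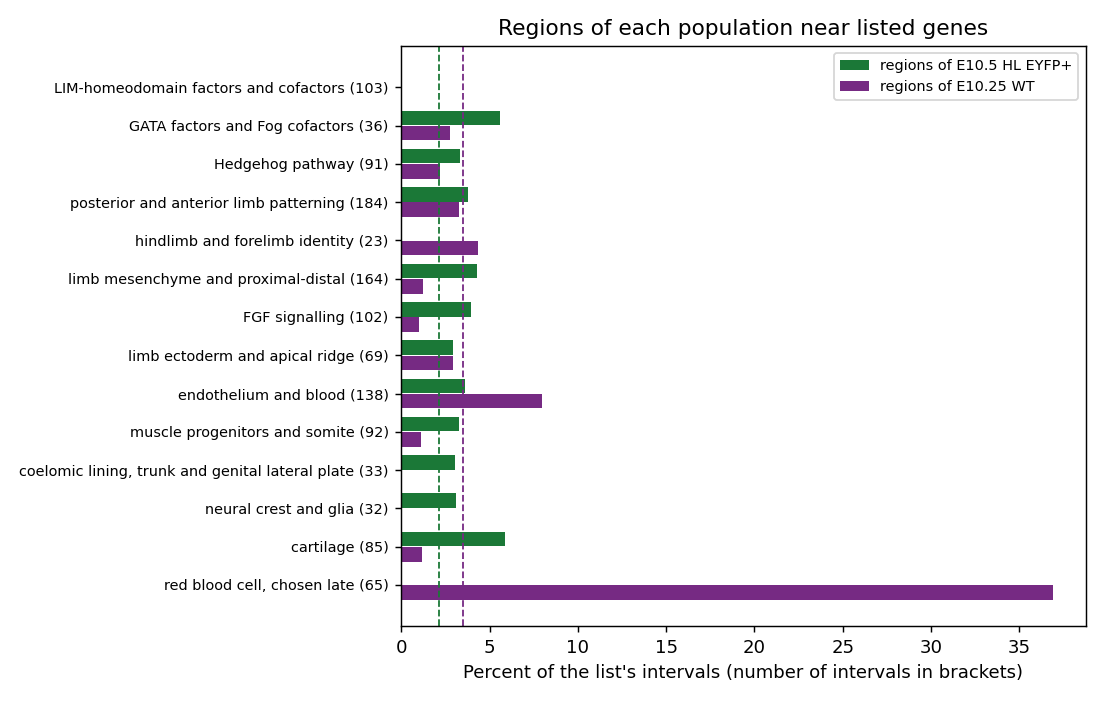
Percent of the intervals nearest to the genes of each list that were HL EYFP+ regions or E10.25 WT regions, with the number of intervals of the list in brackets. Dashed lines give the share among all 37704 intervals, 2.14% and 3.51%, and the red blood cell list, chosen after the data were seen, stands apart with 36.9% E10.25 WT regions.

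Hand2, a posterior factor upstream of Shh, had 17 intervals, with 1 higher in each direction. The interval 91290 bp from its start, printed above, had rank scores of 0.713, 0.620 and 0.451 in HL EYFP+ and was listed in neither E10.25 WT library (0.59 ± 0.096; limma, Benjamini-Hochberg adjusted p = 0.0492). It was also listed in 2 of 3 FL EYFP+ libraries but in 0 of 8 WT_Control libraries. The interval 210061 bp away had 0 in all 3 HL EYFP+ and 0.655 and 0.515 in E10.25 WT (-0.58 ± 0.067; limma, Benjamini-Hochberg adjusted p = 0.0262). A summit of HL EYFP+ lay within 1000 bp of the latter. The Hand2 promoter had 0.517, 0.545 and 0.351 against 0.497 and 0.608, so that the populations overlapped.

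The 3 marker factors had promoters listed in both populations. An Lhx2 promoter interval 312 bp from a start (chr2:38350971-38351170, UTR) had rank scores of 0.783, 0.833 and 0.873 in HL EYFP+ and 0.786 and 0.774 in E10.25 WT. Another, 242 bp from a start, had 0, 0.0276 and 0 in HL EYFP+ and 0.269 and 0 in E10.25 WT. The Isl1 promoter (chr13:116309789-116309988) had 0.769, 0.778 and 0.738 against 0.862 and 0.886, without overlap (-0.11 ± 0.054; limma, Benjamini-Hochberg adjusted p = 0.388). Isl1 had 25 intervals, of which 1 passed, that at 188315 bp printed above, with 0.382 and 0.409 in E10.25 WT and 0 in HL EYFP+ (-0.40 ± 0.052; limma, Benjamini-Hochberg adjusted p = 0.0333), although a summit of HL EYFP+ lay within 1000 bp. Lhx2 had 5 intervals and Gata6 had 6, and none passed. The Gata6 promoter had 0.289, 0.213 and 0.538 against 0.234 and 0.323. An interval 2648 bp from Lhx2 was listed in both E10.25 WT libraries (0.265 and 0.352) and in no HL EYFP+ library, with a limma Benjamini-Hochberg adjusted p of 0.0684, again with a summit of HL EYFP+ within 1000 bp. No interval near Lhx2 or Isl1 passed limma as higher in HL EYFP+. How the LIM-homeodomain words relate to these genes was not tested. The list of 11 LIM-homeodomain factors and cofactors had 4 intervals that were higher in HL EYFP+ and 2 in E10.25 WT by limma. These were 3.88% and 1.94% of its intervals, against 1.52% and 3.34% of all intervals, and 0 of its intervals were regions of either population. The 4 lay near Isl2, Lmo1 and the LIM-only factor Lmo4 (2), with 0.555, 0.529 and 0.493 against 0 and 0 at 28265 bp from Lmo4, where E10.25 WT had a summit within 1000 bp.

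**Figure D4:**
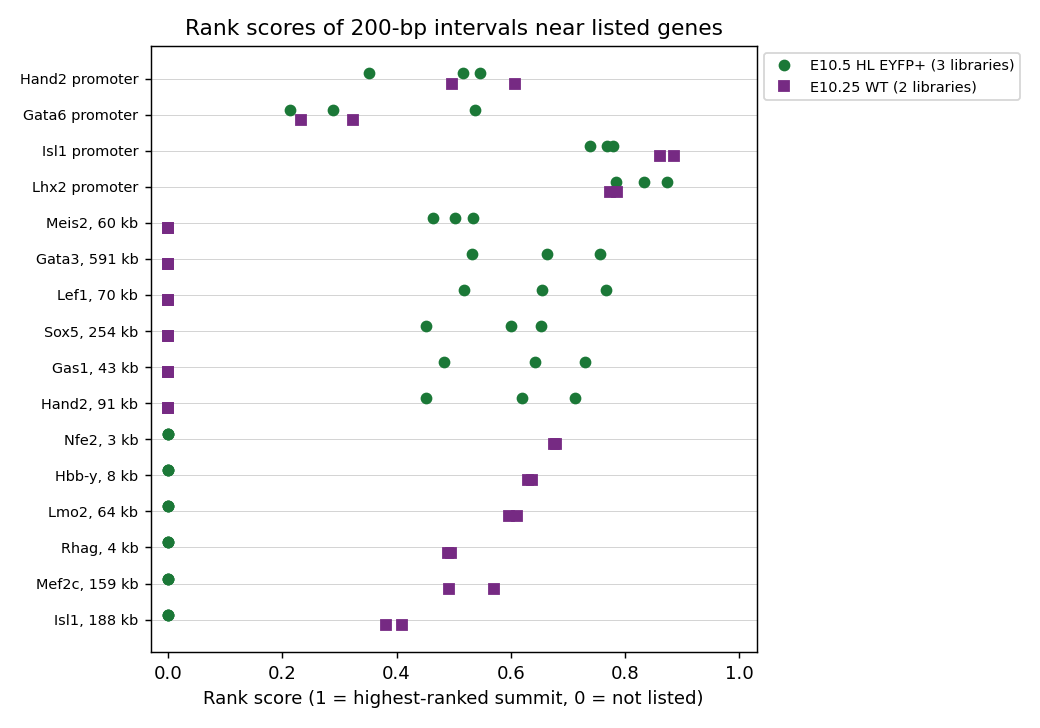
Rank scores of 200-bp intervals in each library (circles, 3 HL EYFP+; squares, 2 E10.25 WT), for 4 promoters and for the printed regions with the distance to the nearest start. The promoter intervals of Lhx2 (that 312 bp from a start), Isl1, Gata6 and Hand2 have scores in all 5 libraries. The 6 regions from Meis2 to the distal region of Hand2 have 0 in E10.25 WT, and the last 6 intervals have 0 in HL EYFP+.

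Other limb regulators held regions of HL EYFP+. Gas1, a co-receptor for SHH, had 3 among its 19 intervals, at 42977, 169092 and 187835 bp. The first of them passed limma, with 0.643, 0.483 and 0.730 (0.62 ± 0.092; limma, Benjamini-Hochberg adjusted p = 0.0417). It was listed in 3 of 3 FL EYFP+ and 8 of 8 WT_Control libraries, and so was the Meis2 region, with 0.503, 0.464 and 0.534 (0.50 ± 0.056; limma, Benjamini-Hochberg adjusted p = 0.0253). Lef1, a mediator of Wnt signals, had 0.655, 0.517 and 0.766 (0.65 ± 0.092; limma, Benjamini-Hochberg adjusted p = 0.0384), and Sox5, a cartilage factor, had an intronic region with 0.653, 0.600 and 0.451. The distant Gata3 region had 0.533, 0.756 and 0.664 (0.65 ± 0.086; limma, Benjamini-Hochberg adjusted p = 0.0331), and another interval in the gene was a region of E10.25 WT that did not pass. GATA3 acts in the development of the kidney duct, of neurons and of T cells. Hand1, Meis1 and Sox9 had 2 regions each, and Tbx2, Tbx3, Irx3, Irx5, Fgf10, Etv1, Dusp6 and Fgfr2 had 1 each, and none of these passed limma. Meis1 and Meis2 also had intervals in the other direction. Meis1 had a region of E10.25 WT at 146868 bp and an interval at 10544 bp that was higher there, with 0, 0.0052 and 0 against 0.309 and 0.370 (-0.34 ± 0.055; limma, Benjamini-Hochberg adjusted p = 0.0498). Meis2 had one at 1377 bp with 0, 0 and 0.00347 against 0.519 and 0.758 (-0.64 ± 0.089; limma, Benjamini-Hochberg adjusted p = 0.0373). Across all genes, Adgrl2, Auts2, Ntm and Robo1 had the most HL EYFP+ regions, with 4 each among 50, 42, 22 and 26 intervals. Of all intervals, 2.14% were such regions. Of these regions, 3 of Robo1, 1 each of Adgrl2 and Auts2 and 0 of Ntm passed limma.

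Some limb genes went the other way. Bmp2 had 2 regions of E10.25 WT, that at 122285 bp with 0.487 and 0.403 (-0.44 ± 0.058; limma, Benjamini-Hochberg adjusted p = 0.0324). Asb4, named in the patterning list, had 2 regions of E10.25 WT that did not pass. Outside the lists, Pik3r1, a regulatory subunit of the PI3 kinase, had 5 among 20 intervals, all of which passed limma. Epas1, a hypoxia factor, had 3 among 4 intervals. Of all intervals, 3.51% were E10.25 WT regions.

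Of the 91 intervals of the Hedgehog pathway, 2 were higher in HL EYFP+ and 2 in E10.25 WT by limma (2.2% each, against 1.52% and 3.34% of all intervals), and 3 and 2 were regions (3.3% and 2.2%, against 2.14% and 3.51%). In the intron of Ptch1, the receptor and a target of SHH, an interval 1225 bp from the start had rank scores of 0, 0.0524 and 0 in HL EYFP+ and 0.595 and 0.528 in E10.25 WT (-0.54 ± 0.058; limma, Benjamini-Hochberg adjusted p = 0.0238). Hhip, a target that binds and restrains SHH, had 1 interval in each direction. That at 372 bp had 0, 0 and 0.0857 against 0.425 and 0.560, and that at 33743 bp 0.568, 0.576 and 0.498 against 0 and 0.155. Grem1, the BMP antagonist that keeps the SHH and FGF loop going, was likewise split. The interval 117563 bp away in the neighbouring Fmn1 had 0.878, 0.653 and 0.854 against 0.0745 and 0 (0.76 ± 0.094; limma, Benjamini-Hochberg adjusted p = 0.0299), and that at 33965 bp had 0, 0.0768 and 0 against 0.464 and 0.507 (-0.46 ± 0.060; limma, Benjamini-Hochberg adjusted p = 0.0324).

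Over all intervals, 1.52% were higher in HL EYFP+ and 3.34% in E10.25 WT by limma. For GATA factors and their FOG cofactors, 1 of 36 intervals was higher in HL EYFP+ and 0 in E10.25 WT by limma (2.78% and 0%). For hindlimb and forelimb identity it was 1 of 23 (4.35%), near Tbx4, and 0, for muscle progenitors and somites 2 and 1 of 92 (2.17% and 1.09%), for the coelomic lining and trunk 0 and 1 of 33 (3.03%), for neural crest and glia 1 and 2 of 32 (3.12% and 6.25%), and for limb ectoderm 0 and 1 of 69 (1.45%). Pax3, a factor of muscle progenitors and neural crest, had an intronic interval at 67397 bp with 0.828, 0.754 and 0.878 in HL EYFP+ and 0 in E10.25 WT (0.82 ± 0.064; limma, Benjamini-Hochberg adjusted p = 0.0199), but E10.25 WT had a summit within 1000 bp. Sox9, the chief regulator of cartilage, had an interval at 133046 bp with 0.842, 0.667 and 0.802 against 0.0879 and 0 (0.73 ± 0.081; limma, Benjamini-Hochberg adjusted p = 0.0250). Its promoter interval, 225 bp from the start, went the other way, with 0 in HL EYFP+ and 0.357 and 0.466 in E10.25 WT (-0.41 ± 0.061; limma, Benjamini-Hochberg adjusted p = 0.0419), and HL EYFP+ had a summit within 1000 bp.

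Shh itself had 2 intervals in the gene body that were E10.25 WT regions. That in an intron, 2617 bp from the start, had rank scores of 0.170 and 0.355 in E10.25 WT and 0 in HL EYFP+ (limma, Benjamini-Hochberg adjusted p = 0.167), and that in a coding exon 0.0345 and 0.364, so that both were low in the lists and neither passed. The Shh promoter was in no list. The ZRS, the distant limb enhancer of Shh in an intron of Lmbr1, had a summit in all 5 whole lists, at ranks 20300, 30798 and 10565 in HL EYFP+ and 30114 and 33139 in E10.25 WT. Within the 30000 highest-ranked summits it was thus listed in 2 of 3 and 0 of 2 libraries, and it was not among the regions. The Etv2 promoter was in no list. An interval in a coding exon of Etv2, 1045 bp from the start, had 0, 0 and 0.248 against 0.532 and 0.405 (limma, Benjamini-Hochberg adjusted p = 0.155), and one 3331 bp from the start had 0, 0.409 and 0.0840 in HL EYFP+ and 0 in both E10.25 WT libraries. Since the reporter carries a fragment of the Etv2 promoter, reads from the transgene and the gene cannot be told apart there.

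The other libraries of the series showed where else the regions were listed. Each of the 3 FL EYFP+ libraries, sorted in the same way from forelimbs, listed 69.5%, 70.0% and 79.7% of the HL EYFP+ regions but 7.04%, 11.8% and 7.41% of the E10.25 WT regions, against 60.5% to 64.3% of all intervals. Nothing states that the FL EYFP+ libraries came from other embryos than HL EYFP+, so they cannot be taken as independent. Of the 806, 422 were in all 3 of these libraries and 73 in none. The WT_Control libraries of the overexpression experiment, which are labelled E10.5 although the methods of the study describe a later harvest for that experiment, listed 53.5% to 61.5% of the HL EYFP+ regions in the 4 libraries marked A and 40.5% to 42.7% in the 4 marked P. Their shares of all intervals were 58.8% to 60.2% and 56.6% to 58.2%. The Etv2_OE libraries listed 57.1% to 62.2% and 40.0% to 43.8% of these regions, against 57.3% to 60.0% and 54.7% to 57.1% of all intervals. The unreplicated E10.5 Posterior library listed 24.7%, the 2 E10.5 Etv2CKO libraries 22.6% and 24.9%, and E9.5 HL 7.07%, against 54.8% to 59.0% of all intervals. Of the 806 regions, 35 were listed in neither an FL EYFP+ nor a WT_Control library. For this count and for the 422 and 73 above, the matching shares of all intervals were not counted. These counts therefore do not set the regions apart from other intervals.

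The E10.25 WT regions were listed most often in E9.5 HL and E10.25 libraries. E9.5 HL listed 35.3% of the 1322, the 3 full lists of E10.25 Etv2cKO 22.3%, 23.98% and 19.3%, E10.5 Posterior 19.1%, the WT_Control libraries 10.4% to 14.7%, the Etv2_OE libraries 10.4% to 13.1% and the E10.5 Etv2CKO libraries 10.51% and 10.7%. All intervals were listed in 57.1% in E9.5 HL and 56.7% to 65.5% in these 3. The other 2 E10.25 Etv2cKO lists held 15626 and 19734 summits and listed 10.29% and 8.55%, against 30.4% and 39.9% of all intervals. Of the 1322, 564 were in neither E9.5 HL nor any E10.25 Etv2cKO library. The share of all intervals that none of these lists held was not counted. The E10.25 WT regions with AGATAA or TGATAA, 520 of the 1322, were set beside the other 802. The former lay within 500 bp of a start in 3.65% and the latter in 13.7%, with a median GC content of 51.2% and 55.5%. They were listed in at least 1 FL EYFP+ library in 3.85% against 29.6%, in a WT_Control library in 14.4% against 43.4%, in E10.5 Posterior in 4.62% against 28.6%, in an E10.25 Etv2cKO library in 30.8% against 51.4% and in E9.5 HL in 27.9% against 40.1%. These differences were not tested. For the HL EYFP+ regions with TAATTA or CTAATG, 340 of the 806, the shares in at least 1 FL EYFP+ library (92.6% against 89.7%) and 1 WT_Control library (81.2% against 78.5%) were close to those of the others.

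**Figure D5:**
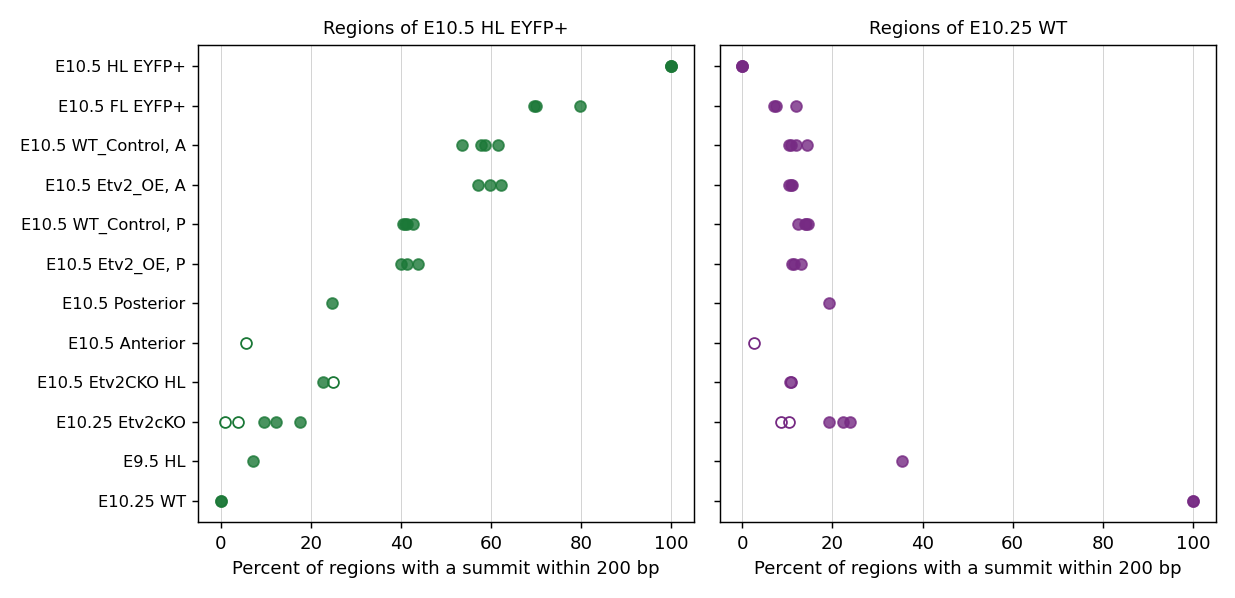
Percent of the 806 HL EYFP+ regions (left) and of the 1322 E10.25 WT regions (right) with a summit within 200 bp in each of the 32 libraries, where each point is a library and open points are lists under 30000 summits. FL EYFP+ lies nearest to HL EYFP+ on the left, at 69.5% to 79.7%, and E9.5 HL stands highest of the other libraries on the right, at 35.3%, while the 2 populations themselves are at 100% or 0% because of how the regions were chosen.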

How the data were processed

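ATAC-seq was performed in all 32 samples. The authors aligned reads to mm10 with Bowtie2 2.2.4, kept unique alignments, removed duplicates with Picard, offset read starts for the transposase and ran MACS2 on single libraries to call peaks (its version is not given in the sources used here). Values the authors deposited are 1 summit per line with the −log10 of its q-value, down to a q of 0.05 in the lists used, and replicates were not pooled. They hold no counts, so a depth or an interval that needs it is not given, and the values were used only to rank summits within a list.

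Each list was reduced to its 30000 highest-ranked summits. A rank score gave the top summit 1 and each next one 1/30000 less. Summits of all 5 libraries were taken by falling score, and each opened a 200-bp interval unless it would overlap an earlier one. An interval was called by a summit within 200 bp of its centre, and intervals called in at least 2 of the 5 libraries were kept. Rank scores (0 where not called) and the log2 shares of 6-base words were compared by limma 3.58.1 in R 4.3.3 with Benjamini-Hochberg adjustment at 0.05, without a block. Word shares were standardised over 10 bins of GC content. Promoter shares and the like were compared by an exact two-sided permutation test, which doubles the one-sided p. Limma was tested on simulated data. Genes were assigned by the nearest protein-coding start (GENCODE M21 basic on GRCm38.p6), which does not show that an interval regulates the gene.

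The members, gene lists and words were chosen with earlier results of these data known. Named intervals were the 8 with the smallest p in each direction among those that passed and were called in all of one group and none of the other. Named genes were those of the lists with the most passing intervals and Lhx2, Isl1, Gata6, Hand2, Shh and Etv2, and named words were the listed ones and the 5 with the smallest p in each direction. The regions, the red cell list and other genes were chosen after the data were seen, and results on a few genes are not reported here. Replicate numbers did not pair the libraries, as deviations from the group means correlated at -0.0175 to 0.0175. As nothing says that libraries came from separate animals, p-values measure the spread between these samples.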

Additional observations from a re-analysis of the deposited data

How the results depend on the processing

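The number of intervals passed by limma depended on the libraries and on the length of the lists. Leaving out 1 library gave 0 to 988 intervals higher in HL EYFP+ and 0 to 1334 higher in E10.25 WT, and calls were left only without HL EYFP+ replicate 3. A replicate block, a paired fit on the replicate number, gave 0 and 0 with limma (3388 and 3425 at an unadjusted p under 0.05), and 100 and 51 words in place of 134 and 64. With 20000, with 10000 and with summits of a −log10 q of at least 5, 341, 184 and 198 intervals were higher in HL EYFP+ and 673, 337 and 597 in E10.25 WT. Intervals called in all of one population and none of the other numbered 704 and 992 with 10000 summits, 1822 and 2504 without repeat-masked ones, and without 1 library 2826 to 3523 and 3384 to 3983. The second count has no value without an E10.25 WT library, since intervals had to be called in 2 libraries.

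Words higher in HL EYFP+ and in E10.25 WT numbered 601 and 327 with raw shares, 208 and 228 with 10000 summits, 245 and 104 with whole lists, 28 and 22 with distal summits, 60 and 29 with 100-bp windows, and 23 to 133 and 17 to 66 without 1 library. AGATAA and CTAATG passed in 14 of 14 alternatives, TGATAA in 13 (not with raw shares) and TAATTA in 12. The words CGGAAG (-0.19), CTTTGA (0.20) and GGGCGG (-0.21), which did not pass, changed sign and passed with raw shares, and CGGAAG did so with 10000 summits (-0.11). Other words passed only under such settings, among them CATTGT (0.20), GTAAAC (0.21) and ACCGGT (-0.18) with raw shares and CATGTC (-0.25) with 10000 summits.

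The regions, defined after seeing the data, numbered 212 and 435 with 20000 summits and 16 and 22 with 10000. Without 1 library they numbered 1008 to 1820 and 1322 to 2235, where 1322 holds by construction without an E10.25 WT library. Promoters listed in HL EYFP+ alone numbered 16 within 1000 bp of a start, and those in E10.25 WT alone 717 with 10000 summits. The difference in promoter share was -17.4 to -0.94 percentage points across its alternatives, lower in HL EYFP+ in each of them. With a summit within 1000 bp as a call, or with the 20000 highest-ranked distal summits, both added after seeing the data, interval counts stayed within 1.5 times the reported ones. The cause of these changes was not tested.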
